A study of Homo sapiens with 6 samples.

Results

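Chemokines are small secreted proteins that draw leukocytes along a gradient, and epithelial cells make several of them when stimulated. Here 10 chemokine genes of the CXC, CC and CX3C families were followed in lung cancer cells with and without knockdown of GLMP, which encodes a lysosomal membrane glycoprotein. The genes were CXCL1, CXCL2, CXCL3, CXCL5, CXCL6, CXCL8, CXCL16, CCL2, CCL20 and CX3CL1. They were chosen by gene symbol, and all 10 were found among the 60664 genes of the count table. The cells were PC9OR, derived by name from PC9, a human lung adenocarcinoma line with an activating EGFR deletion. RNA was sequenced from 3 libraries labelled NC, with the genotype given as control, and 3 labelled si-GLMP, with the genotype given as GLMP knockdown. The time after transfection, the siRNA sequences and whether the replicates were separate cultures are not stated by the labels. The p-values below therefore rest on how much these libraries vary, and that variation may be technical.

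Total counts ran from 19896875 to 22372878 per library. GLMP was counted 309, 344 and 347 times in NC and 82, 61 and 65 times in si-GLMP, so every library matched its label. Of 9 tested markers of lung epithelium and carcinoma, CLDN4, EPCAM, CDH1 and MUC1 were higher and the keratin gene KRT7 lower. The called share was 55.6%, against 23.3% of all 15900 tested genes. With si-GLMP replicate 3 left out, MUC1 no longer passed (edgeR adjusted p = 0.134). The adhesion genes EPCAM and CDH1 stood at 459.5 ± 18.3 and 315.1 ± 25.5 CPM (read counts relative to library size, scaled between libraries; SD, n = 3) in NC, while the lung lineage factor NKX2-1 had only 8 counts summed over NC and 0 over si-GLMP. Of 12 leukocyte markers, LYZ and TYROBP had 0 counts in each library, and the pan-leukocyte gene PTPRC had 6 counts over the NC and 8 over the si-GLMP libraries. The summed level of this list nevertheless ran from 17.6 to 23.7 CPM in NC and from 32.5 to 39.0 CPM in si-GLMP. Most of that was CSF1R, which rose from 17.7 ± 2.74 to 30.4 ± 1.94 CPM (SD, n = 3 each), and S100A8 also passed the test, from 17 counts over the NC to 97 over the si-GLMP libraries. S100A8 entered the test through the si-GLMP libraries alone. Of 11 fibroblast and endothelial markers, COL1A1 alone was called among the 6 tested, COL3A1 had 0 counts in each library, and the summed level of the list ran from 13.1 to 14.4 CPM in NC and from 18.3 to 19.7 CPM in si-GLMP. The part of these 2 lists in the results below was not tested. In bulk RNA, a change in the number of cells that express a gene cannot be told apart from a change in RNA per cell.

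The CXC chemokines CXCL1, CXCL2, CXCL3, CXCL5, CXCL6 and CXCL8 carry a Glu-Leu-Arg motif just before the first cysteine, and through it they attract neutrophils by the receptors CXCR1 and CXCR2. Their genes are induced by interleukin-1, tumour necrosis factor and bacterial products through NF-kB and AP-1, and their mRNAs are short-lived because of AU-rich elements. CXCL16 and CX3CL1 are made as membrane proteins with a mucin-like stalk, are shed by ADAM10 and ADAM17, and bind CXCR6 and CX3CR1. CCL20 attracts cells that carry CCR6, and CCL2 attracts monocytes by CCR2. Coding transcripts of GENCODE release 29 held the Glu-Leu-Arg codons in all 6 of the first group and in none of the other 4 members. The codons are shown because they divide the members into the neutrophil-attracting group and the rest. Capitals mark the 3 codons of the motif, and lower case the CXC codons that follow.

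CXCL1, CXCL2 and CXCL3, which were identical here: GAACTGCGCtgccagtgc
CXCL8: GAACTTAGAtgtcagtgc
CXCL5: GAGCTGCGTtgcgtttgt
CXCL6: GAGCTGCGTtgcacttgt

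The 6 genes with this motif lie within 358.8 kb of chromosome 4 in GRCh38, from 73740506 to 74099293, and they arose by duplication. Coding sequences of CXCL1 and CXCL2 were 93.5% identical over 321 aligned columns, CXCL2 and CXCL3 94.4%, CXCL1 and CXCL3 90.7%, and CXCL5 and CXCL6 87.4%. CXCL8 was the most distant, with between 48.4% and 54.0% identity to the other 5. Close copies can exchange reads. Of the 50-base words in the transcript of CXCL2, 9.24% also occurred in another gene, against 5.73% for CXCL1 and 5.26% for CXCL3, and all of these were shared among those 3 genes. CXCL8 and CXCL16 shared no such word with another gene. A single transcript of each member was searched, on its own strand, so overlap with genes on the other strand was not covered.

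Upstream of their RefSeq starts, the same 6 genes shared the 9-base NF-kB core GGAATTTCC. It was found in the 250 bases before the start in CXCL1, CXCL2, CXCL3, CXCL5, CXCL6 and CXCL8, and in 0.413% of 35116 promoters of the same length, searched on both strands. RefSeq promoters (GRCh38.p14) were at hand for 7 members: these 6 and CCL20. The 40-base windows below are shown because the core is the feature that the neutrophil-attracting genes share outside the coding sequence. They are written 5′ to 3′ on the strand of the gene, with the core in capitals.

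CXCL8, chr4:73740462-73740501, plus strand, core at -91 to -83 from the start: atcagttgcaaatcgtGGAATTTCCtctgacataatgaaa
CXCL1, chr4:73869299-73869338, plus strand, core at -78 to -70: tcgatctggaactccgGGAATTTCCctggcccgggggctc
CXCL2, chr4:74099249-74099288, minus strand, core at -77 to -69: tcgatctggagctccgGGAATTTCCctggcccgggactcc
CXCL3, chr4:74038744-74038783, minus strand, core at -78 to -70: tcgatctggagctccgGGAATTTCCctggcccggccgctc
CXCL5, chr4:73998744-73998783, minus strand, core at -90 to -82: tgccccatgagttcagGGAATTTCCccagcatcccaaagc
CXCL6, chr4:73836573-73836612, plus strand, core at -89 to -81: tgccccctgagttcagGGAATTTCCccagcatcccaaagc
CCL20, chr2:227813747-227813786, plus strand, NF-kB consensus match at -79 to -70: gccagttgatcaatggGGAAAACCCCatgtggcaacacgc

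The longer NF-kB consensus, which overlaps the core, matched in CCL20 and in 5 of the 6 genes, CXCL8 being the exception, and in 5.21% of all promoters. CXCL8 alone among the 7 also held the AP-1 motif TGANTCA, which occurred in 6.57% of all promoters. Its 250 upstream bases, chr4:73740319-73740568 on the plus strand, are shown because CXCL8 was the most abundant gene of the neutrophil-attracting group. Capitals mark, in order, the AP-1 motif, the NF-kB core and the TATAAA box.

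CXCL8: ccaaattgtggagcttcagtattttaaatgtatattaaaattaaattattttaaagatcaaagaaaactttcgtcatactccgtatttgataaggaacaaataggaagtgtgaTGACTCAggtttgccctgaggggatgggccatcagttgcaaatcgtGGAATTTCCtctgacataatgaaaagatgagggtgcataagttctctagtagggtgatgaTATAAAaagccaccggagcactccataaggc

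A match is a string of letters and not evidence of binding. Among the 6 genes that hold the core, CXCL5 and CXCL6 had 0 counts in all 6 libraries.

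CXCL8, the neutrophil attractant interleukin-8, was the most abundant gene of the neutrophil-attracting group and rose in si-GLMP. CXCL8 (ENSG00000169429) had 240, 227 and 274 counts in NC and 623, 821 and 526 in si-GLMP. Every si-GLMP library exceeded every NC library, and the second si-GLMP library was the highest. The level went from 11.8 ± 0.578 to 31.5 ± 6.68 CPM (SD, n = 3 each). The log2 fold change was 1.42 ± 0.12 (SE; quasi-likelihood F test of edgeR, adjusted p = 2.56e-12), a 2.68-fold rise, and its 95% interval ran from 1.19 to 1.65 on the log2 scale. It ranked 71st from the top of 15900 tested genes by log2 fold change. Without si-GLMP replicate 2 the log2 fold change was 1.25.

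CXCL1 (ENSG00000163739), a ligand of CXCR2 first found as a melanoma growth-stimulating activity, had a much lower level. Its counts were 12, 8 and 14 in NC and 29, 33 and 25 in si-GLMP. The groups did not overlap. The level rose from 0.538 ± 0.128 to 1.39 ± 0.174 CPM (n = 3 each, SD), or by 1.36 ± 0.36 in log2 fold change (edgeR adjusted p = 0.00297). Only 2 of the 3 NC libraries reached the cutoff of 0.481 CPM that decided which genes were tested, so CXCL1 entered the test through the si-GLMP libraries. With no filter its edgeR adjusted p was 0.00376.

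CXCL2 (ENSG00000081041), the neighbour of CXCL3 in the cluster and another CXCR2 ligand, rose less firmly. Its counts were 20, 14 and 24 in NC and 44, 33 and 29 in si-GLMP. All si-GLMP values were above all NC values, and the first si-GLMP library was the highest. The level went from 0.918 ± 0.204 to 1.70 ± 0.394 CPM (n = 3 each, SD), or by 0.88 ± 0.31 in log2 fold change (edgeR adjusted p = 0.0288). The call was lost when NC replicate 2 (edgeR adjusted p = 0.125) or si-GLMP replicate 1 (0.182) was left out and with DESeq2 (adjusted p = 0.0690), while the log2 fold change stayed between 0.68 and 1.01 when single libraries were left out.

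CXCL3, the third of the closely related genes, was near the limit of detection. It had 2, 5 and 3 counts in NC and 2, 7 and 6 in si-GLMP. A count of 3, taken as the floor, equalled 0.134 to 0.151 CPM in these libraries. The groups overlapped, and the ratio of the summed counts, 15 against 10, was 1.54 with an exact 95% interval from 0.647 to 3.83. CXCL5 and CXCL6 had 0 counts in every library, which allows up to 3 counts in each. These intervals and floors cover counting error only.

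**Figure D1:**
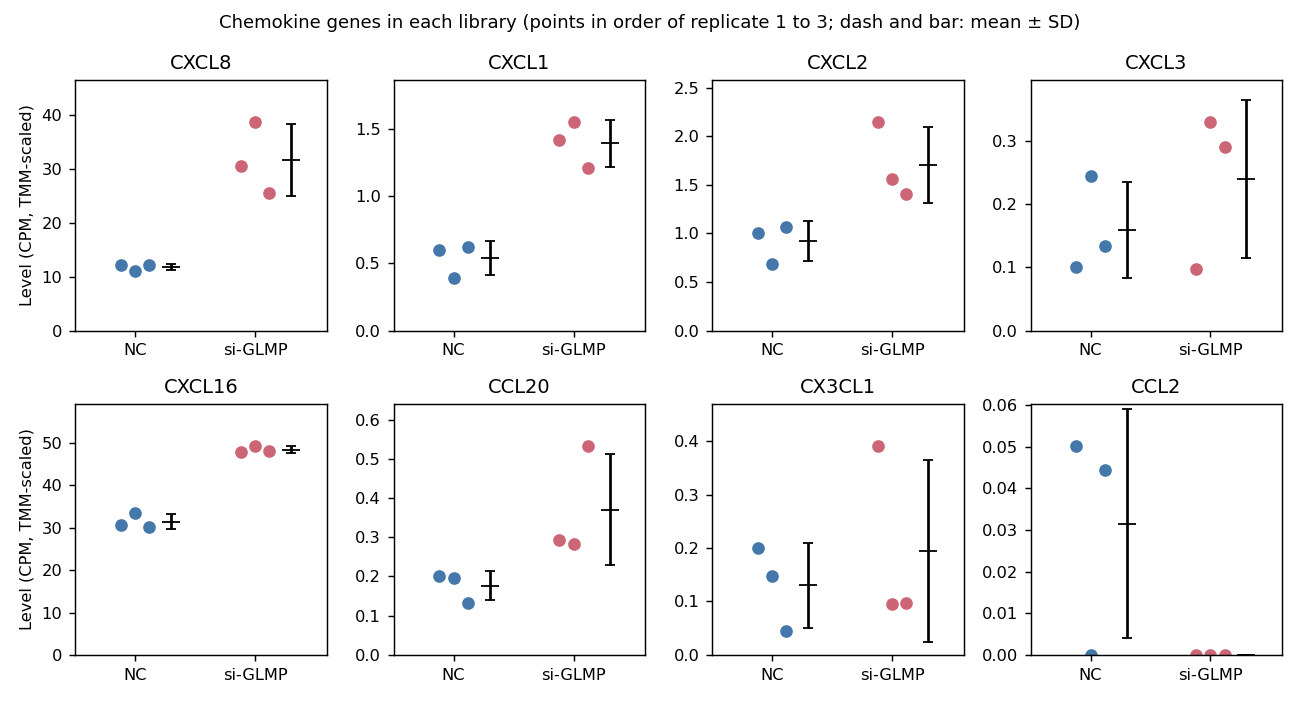
Level of 8 chemokine genes in each library, in CPM scaled by TMM, on linear axes that start at 0 and differ between panels. Points are libraries, and the dash and bar give the mean ± SD of 3. CXCL8, CXCL1, CXCL2, CXCL16 and CCL20 have no overlap between the groups, and CCL2, CCL20, CXCL3 and CX3CL1 lie near or below the floor of 0.134 to 0.151 CPM in at least one library.

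Within a library, the neutrophil-attracting group was mostly CXCL8. CXCL8 gave 87.6%, 89.4% and 87.0% of the counts of the 6 genes in NC and 89.3%, 91.8% and 89.8% in si-GLMP. The summed level of the 6 genes was 13.8, 12.4 and 14.0 CPM in NC and 34.1, 42.2 and 28.4 CPM in si-GLMP. Whether neighbouring genes changed by different amounts was asked of the 2 pairs of tested neighbours with the log2 ratio of their counts in each library. CXCL8 over CXCL1 was 4.42 ± 0.282 in NC and 4.46 ± 0.135 in si-GLMP (exact two-sided permutation test, p = 0.8, adjusted p = 0.8). CXCL1 over CXCL2 was -0.75 ± 0.030 in NC and -0.27 ± 0.301 in si-GLMP (exact two-sided permutation test, p = 0.1, adjusted p = 0.2), and the NC values were all below the si-GLMP values. The smallest p that 3 against 3 libraries can give is 0.1, so neither pair could pass the threshold.

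CXCL16, the transmembrane chemokine that also serves as a scavenger receptor for oxidised lipoprotein, was the most abundant member. CXCL16 (ENSG00000161921), on chromosome 17 from 4733526 to 4739922, had 610, 683 and 682 counts in NC and 978, 1046 and 995 in si-GLMP. The si-GLMP libraries lay close together and all above the NC libraries. The level rose from 31.4 ± 1.73 to 48.4 ± 0.790 CPM (n = 3 each, SD), or by 0.62 ± 0.08 in log2 fold change (edgeR adjusted p = 2.32e-08) or 1.54-fold. MED11 on the opposite strand overlaps 3.04% of its exonic length. Per length, CXCL16 stood at 11.2 ± 0.618 CPM per kilobase of exon in NC, above CXCL8 at 5.18 ± 0.254. In si-GLMP the values were 17.3 ± 0.283 and 13.9 ± 2.94, and only the second si-GLMP library came near to CXCL16. CXCL2 and CXCL1 followed far below, at 0.612 ± 0.136 and 0.415 ± 0.0985 CPM per kilobase in NC, and at 1.14 ± 0.263 and 1.08 ± 0.134 in si-GLMP, and their ranges overlapped in both groups. CCL20 (0.111 and 0.232), CXCL3 (0.0718 and 0.108) and CX3CL1 (0.0218 and 0.0324 CPM per kilobase in NC and si-GLMP) were lower still.

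The other membrane-bound member, CX3CL1 (fractalkine), was barely detected, with 4, 3 and 1 counts in NC and 8, 2 and 2 in si-GLMP. The ratio of the sums, 12 against 8, was 1.54 with an exact 95% interval from 0.579 to 4.34. The first si-GLMP library held 8 of the 12 si-GLMP counts, and the groups overlapped.

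Of the 2 CC members, CCL20 had 4, 4 and 3 counts in NC and 6, 6 and 11 in si-GLMP. The groups did not overlap, but the gene had too few counts to be tested with the others. The ratio of the sums, 23 against 11, was 2.15 with an exact 95% interval from 1.005 to 4.875, and with no filter on low counts its edgeR adjusted p was 0.459. CCL2 had 1, 0 and 1 counts in NC and 0 in each si-GLMP library, at or under the floor in both groups.

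In all, 4 of the 10 members could be tested, and 4 were higher in si-GLMP. Since CXCL1 entered through the si-GLMP libraries, this count is a description only. Over all 15900 tested genes, 23.3% passed the same threshold, 12% as higher and 11.3% as lower. Groups had no overlap in CPM, with si-GLMP above, in all 4 tested members and in 18.5% of all tested genes, and with si-GLMP below in 0 members and 17.9% of all tested genes. No member was lower, also at an unadjusted p under 0.05, with DESeq2 or with limma-voom. With no filter on low counts 8 members could be tested and the same 4 were called, where 9.75% of 33387 genes were called in either direction. CXCL1 and CXCL8 also passed an absolute log2 fold change of 1.

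The remaining 36 human chemokine genes were mostly silent. Of these, 24 had 0 counts in every library and 4 could be tested. The called share was 25%, or 1 gene, near the 23.3% of all tested genes. CCL5, which attracts T cells and monocytes, rose from 0.352 ± 0.134 to 1.12 ± 0.391 CPM (SD, n = 3 each), with counts of 10, 5 and 7 in NC and 23, 32 and 15 in si-GLMP. Its log2 fold change was 1.66 ± 0.42 (edgeR adjusted p = 0.00239), and it too entered the test through the si-GLMP libraries. CCL26, an eosinophil attractant, had 59, 61 and 53 counts in NC and 81, 92 and 68 in si-GLMP, with no overlap. Its log2 fold change of 0.49 ± 0.20 did not pass (edgeR adjusted p = 0.0657). CCL22, a ligand of CCR4, had 0.30 ± 0.18 (edgeR adjusted p = 0.240), and CCL28, a mucosal epithelial chemokine, 0.18 ± 0.16 (edgeR adjusted p = 0.467), and both overlapped between groups. With si-GLMP replicate 3 left out, CCL26 (0.60, edgeR adjusted p = 0.0479) and CCL22 (0.50, 0.0488) were also called, 3 in place of 1. CXCL10 and CXCL11, the interferon-induced ligands of CXCR3, had 1 and 3 counts summed over NC and 7 and 12 over si-GLMP, too few to test. All 7 of the CXCL10 counts were in si-GLMP replicate 1, and 7 of the 12 CXCL11 counts in si-GLMP replicate 2.

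**Figure D2:**
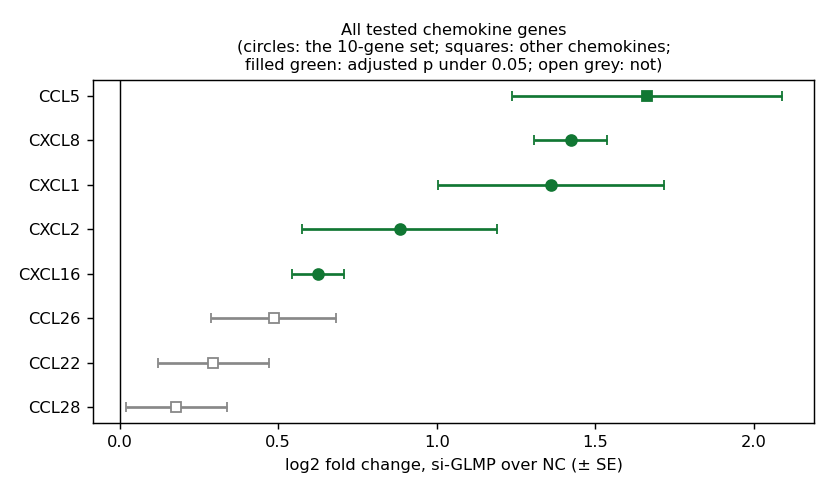
Log2 fold change of si-GLMP over NC, with its SE, for the 8 chemokine genes that could be tested. Circles are members of the 10-gene set, squares are other chemokines, and filled green symbols have an edgeR adjusted p under 0.05, from CCL5 at 1.66 down to CXCL16 at 0.62, while CCL26, CCL22 and CCL28 do not.

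CXCL16 held the largest share of all chemokine reads in each library. It took 53.2%, 55.8% and 52.7% of the counts of the 46 chemokine genes in NC and 47.7%, 44.1% and 53.1% in si-GLMP. CXCL8 took 20.9%, 18.6% and 21.2% in NC and 30.4%, 34.6% and 28.1% in si-GLMP. The CXCL8 shares did not overlap between groups, and the exact 95% binomial interval of the lowest si-GLMP library (26.1% to 30.2%) lay above that of the highest NC library (19.0% to 23.5%). These intervals cover counting error only and not the spread between libraries. The CXCL16 shares overlapped.

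The cluster on chromosome 4 has other expressed genes beside it, and those on the side of CXCL2 also rose. Within 500 kb of its ends there were 12 further protein-coding genes, named here by position alone, and 6 of them could be tested. EREG, the ligand epiregulin, had 1.39 ± 0.12 as its log2 fold change (edgeR adjusted p = 3.05e-10) and lay 624.6 kb from the start of CXCL8. Epigen (EPGN) had 1.16 ± 0.24 (edgeR adjusted p = 0.000146), the folate enzyme gene MTHFD2L 0.55 ± 0.14 (0.00146) and amphiregulin (AREG) 0.24 ± 0.08 (0.0165). On the side of CXCL8, ANKRD17 (-0.08 ± 0.07) and RASSF6 (-0.59 ± 0.46) were not called. ALB, AFP, AFM, PF4V1, PF4 and PPBP had between 0 and 2 counts over the 6 libraries. In the region 7 of the 9 tested genes were higher, where 12% of all tested genes were, a description only since CXCL1 entered the test through the si-GLMP libraries. The silent genes CXCL6, PF4V1, PF4, PPBP and CXCL5 lie between genes that rose.

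**Figure D3:**
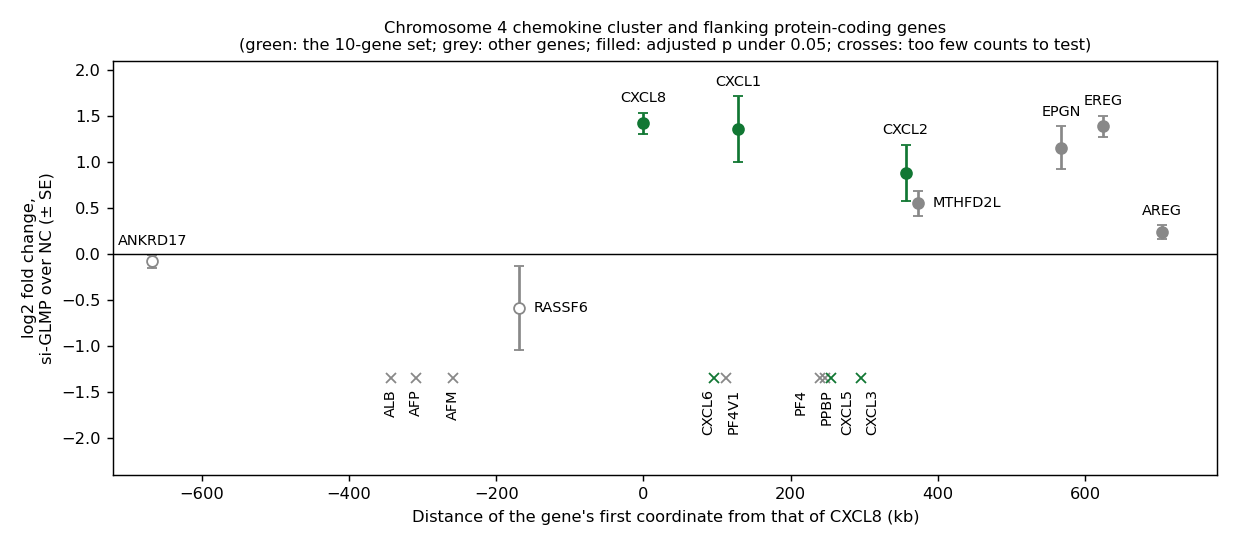
Log2 fold change of si-GLMP over NC, with its SE, against the distance in kb of each protein-coding gene from CXCL8 on chromosome 4. Green points are the chemokine members, grey points other genes, filled points have an edgeR adjusted p under 0.05, and crosses mark genes with too few counts to test. CXCL8 (1.42), CXCL1 (1.36), CXCL2 (0.88), MTHFD2L, EPGN, EREG (1.39) and AREG (0.24) lie above 0.

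In the mRNA, the members differed in AU-rich pentamers. The ATTTA pentamer occurred 9 times in the 1252 bases of the 3′ untranslated region of CXCL8, or 7.19 per kb, against a median of 1.39 per kb over 18117 coding genes. CXCL2 had 10 in 721 bases (13.9 per kb), a density reached by 0.69% of coding genes. CXCL3 had 7 (10.4 per kb), CXCL1 5 (7.08 per kb) and CCL20 3 (6.65 per kb). The untested CXCL5 and CXCL6 had 5.51 and 5.36 per kb. CXCL16, with 1 pentamer in 320 bases, and CX3CL1, with 2 in 2016 bases, were nearer to the median. The densest 30 bases of 2 members are shown because this is the element that sets these mRNAs apart from that of CXCL16. Pentamers are in capitals, with T for U.

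CXCL8: taacctATTTAttATTTAtgtATTTATTTA
CXCL2: aagtcttctATTTATTTATTTATTTATTTA

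A further list held RNA-binding proteins that act on AU-rich or stem-loop elements of cytokine mRNAs, general mRNA decay factors and the kinase MAPKAPK2. Of 17 tested, 3 were higher, 2 lower and 12 uncalled, and the median log2 fold change of -0.02 was close to that of all genes (0.00). The 29.4% called stood near the 23.3% of all tested genes. ZC3H12A (regnase-1), an endonuclease that cleaves stem-loops of cytokine mRNAs, rose from 41.6 ± 2.34 to 67.7 ± 1.79 CPM (n = 3 each, SD), or by 0.70 ± 0.08 in log2 fold change (edgeR adjusted p = 1.77e-10). ZFP36 (tristetraprolin), which binds AU-rich elements and promotes decay, rose by 0.60 ± 0.08 (edgeR adjusted p = 1.97e-08), and its relative ZFP36L1 by 0.28. ZFP36L2 had -0.29, and MAPKAPK2, the kinase that inactivates tristetraprolin, -0.33 ± 0.07 (edgeR adjusted p = 0.000368). ZC3H12A, ZFP36 and the 4 chemokine genes were thus higher in the same libraries, and RNA stability was not measured.

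Genes upstream of chemokine induction were higher in part. Of 25 tested cytokines and receptors that drive or restrain epithelial chemokines, 11 were higher, 2 lower and 12 uncalled. The median was 0.27, and the 52% called compares with 23.3% of all tested genes. The 2 lower were IL18 (edgeR adjusted p = 0.0472) and TLR2 (0.0223), and TLR2 entered the test through the NC libraries. With DESeq2 0 were lower. The IL18 call was also lost with no filter and without NC replicate 1 or NC replicate 3. Among the 11 higher genes were 2 receptor antagonists, IL1RN (log2 fold change 0.75 ± 0.13, edgeR adjusted p = 4.81e-06) and IL36RN (0.49 ± 0.13, 0.00330). IL1A, an epithelial alarm cytokine, rose from 33.7 ± 5.71 to 60.5 ± 7.58 CPM (n = 3 each, SD), or by 0.84 ± 0.10 in log2 fold change (edgeR adjusted p = 1.86e-06). IL1RAP, the co-receptor of interleukin-1, rose by 1.01 ± 0.11 (edgeR adjusted p = 1.35e-10), IL1RL1, the receptor of interleukin-33, by 0.95, IL6R by 0.81 and the protease-activated receptor F2RL1 by 0.43. TNF had 5 counts over the NC and 15 over the si-GLMP libraries, too few to test.

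Adaptors and kinases between those receptors and NF-kB moved both ways. Of 24 tested, 6 were higher, 5 lower and 13 uncalled, the median being 0.10. The called share was 45.8%, against 23.3% of all tested genes. The interleukin-1 receptor kinase IRAK2 rose from 16.7 ± 2.42 to 33.7 ± 2.01 CPM (n = 3 each, SD), or by 1.01 ± 0.10 in log2 fold change (edgeR adjusted p = 4.88e-12). TRAF2 rose by 0.31 and TRADD, an adaptor of the tumour necrosis factor receptor, by 0.35. The TRADD call was lost without NC replicate 2 (adjusted p = 0.0923), si-GLMP replicate 1 (0.0551) or si-GLMP replicate 3 (0.0720). The kinase MAP3K7 (TAK1) had -0.26 and the paracaspase MALT1 -0.33. Between 5 and 8 of the list were called when single libraries were left out. The count of 11 fell to 7 when NC replicate 1, si-GLMP replicate 1 or si-GLMP replicate 2 was left out, to 6 when NC replicate 3 was, and to 5 when si-GLMP replicate 3 was.

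In a list of NF-kB subunits, their inhibitors and the transcription factors ATF3, CEBPB and CEBPD, 10 of 19 tested genes were higher, 1 lower and 8 uncalled. The median was 0.31, and 57.9% were called, against 23.3% of all tested genes. Of the subunits, NFKB2 (0.33) and RELB (0.26) were higher, while RELA (0.08), NFKB1 (-0.16) and REL (-0.25) were uncalled. The RELB call (edgeR adjusted p = 0.0351) was lost with no filter (edgeR adjusted p = 0.0639) and without NC replicate 1 or NC replicate 3. The leading 4 of the list were feedback regulators that NF-kB itself induces. NF-kB activity was not tested. NFKBIA, the inhibitor that holds NF-kB in the cytoplasm, rose from 57.4 ± 4.22 to 81.8 ± 3.73 CPM (n = 3 each, SD), or by 0.51 ± 0.07 in log2 fold change (edgeR adjusted p = 3.06e-07). TNIP1 rose by 0.50 and the deubiquitinase TNFAIP3 (A20), which it binds, by 0.41. BCL3 rose by 0.53, and CEBPB, a transcription factor that acts with NF-kB at the CXCL8 promoter, by 0.33.

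A list of other secreted or inflammatory epithelial genes was mostly higher. Of 15 tested, 12 were higher, 0 lower and 3 uncalled, the median being 0.58. The 80% called compares with 23.3% of all tested genes. IL32, 1 of the 12, entered the test through the si-GLMP libraries, so this count is a description only. No member was lower at an unadjusted p under 0.05, with DESeq2 or with limma-voom. LCN2, which sequesters bacterial iron carriers, rose from 0.770 ± 0.168 to 3.57 ± 0.689 CPM (n = 3 each, SD), or by 2.21 ± 0.26 in log2 fold change (edgeR adjusted p = 2.05e-09). The cytokine IL24 rose by 1.39 ± 0.13 (edgeR adjusted p = 8.99e-13), CD274, which encodes the checkpoint ligand PD-L1, by 0.98, the adhesion molecule ICAM1 by 0.75 and LIF by 0.58. These lists were chosen with results of these data known, so their direction is not independent evidence.

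**Figure D4:**
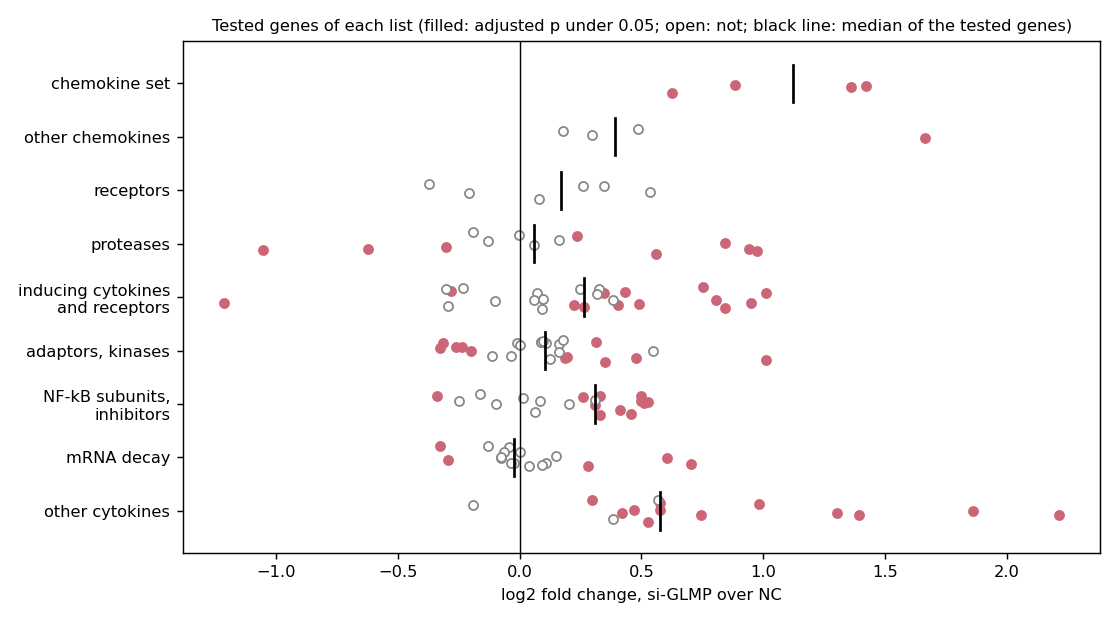
Log2 fold change of si-GLMP over NC for every tested gene of the chemokine set and of 8 related gene lists. Points are genes, filled where the edgeR adjusted p was under 0.05, and black lines are medians of the tested genes, from -0.02 for mRNA decay factors to 0.58 for other epithelial cytokines and 1.12 for the 4 tested chemokine members.

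The receptors of these chemokines were scarcely expressed by the cells themselves. CXCR1 had 7 counts over the NC and 4 over the si-GLMP libraries, and CXCR2 had 13 and 22. CX3CR1 had 2 and 1, and CCR2 and CCR6 had 0 in each. CXCR6, the receptor of CXCL16, could be tested at 0.753 ± 0.176 and 0.578 ± 0.175 CPM (n = 3 each, SD), or by -0.37 ± 0.41 in log2 fold change (edgeR adjusted p = 0.571). Of 23 receptors, 6 were tested and 0 were called by edgeR, DESeq2 or limma-voom. At an unadjusted p under 0.05 there was 1, the scavenging receptor ACKR3, chosen here after its values were seen, at 117.6 ± 13.6 and 101.9 ± 11.95 CPM (log2 fold change -0.21 ± 0.08, edgeR adjusted p = 0.0617). ACKR3 was called without NC replicate 1 or without NC replicate 3.

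A list of proteases that shed or trim chemokines, with their inhibitors and the rhomboid-like RHBDF1 and RHBDF2, moved both ways. Of 13 tested, 5 were higher, 3 lower and 5 uncalled, the median being 0.06. The called share was 61.5%, against 23.3% of all tested genes. MMP1, an interstitial collagenase, rose from 55.0 ± 4.93 to 108.0 ± 17.4 CPM (n = 3 each, SD), or by 0.97 ± 0.09 in log2 fold change (edgeR adjusted p = 3.06e-08). The cysteine proteases CTSL and CTSS rose by 0.56 and 0.94, while CTSB had -0.62 and the membrane metalloproteinase MMP14 -1.05. ADAM10 and ADAM17, which release CXCL16 and CX3CL1 from the membrane, were not called, with log2 fold changes of 0.16 ± 0.07 (edgeR adjusted p = 0.114) and 0.06 ± 0.07 (0.616).

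**Figure D5:**
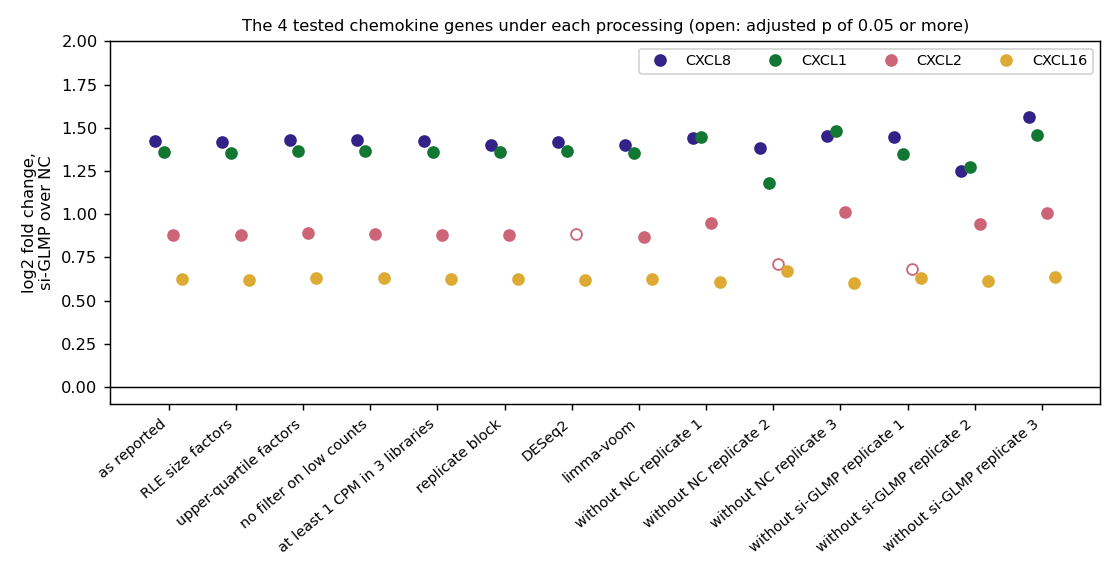
Log2 fold change of si-GLMP over NC of the 4 tested chemokine genes as reported and under 13 other ways of processing. Open points have an adjusted p of 0.05 or more, which occurred for CXCL2 with DESeq2, without NC replicate 2 and without si-GLMP replicate 1. CXCL16 stayed between 0.60 and 0.67 and CXCL8 between 1.25 and 1.56.

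The calls of CXCL8, CXCL1 and CXCL16 were made under all 13 alternatives, among them every fit with a library left out. CXCL1 entered the reported fit through the si-GLMP libraries, and likewise the fit that required 1 CPM in 3 libraries. Its NC values were 0.603, 0.391 and 0.621 CPM, so its repeated call is a description only. Their largest adjusted p was 9.16e-08 for CXCL8, 0.0244 for CXCL1 and 8.27e-06 for CXCL16 (edgeR, DESeq2 or limma-voom).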

How the data were processed

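RNA of PC9OR cells was sequenced as 6 mRNA libraries, 3 NC and 3 si-GLMP, and groups and replicate numbers come from the sample titles. The authors deposited raw read counts per gene, whole numbers with a different total in each library. The submitters' processing notes name HISAT2 and the build GRCh38. How reads were counted, and with which annotation and strand setting, is not given in the sources used here. If strand was not used, a gene and an overlapping gene on the other strand can share reads.

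Genes kept by filterByExpr (minimum count 10, here 0.481 CPM in 3 libraries) were tested, 15900 of 60664. Counts were scaled by TMM and tested with the robust quasi-likelihood F test of edgeR 4.0.16 in R 4.3.3, with a single term for the group. Adjustment was by Benjamini-Hochberg over all tested genes, with a threshold of 0.05, and SEs are the log2 fold change over the square root of F. Levels are CPM computed from the counts, as mean ± SD. All members were described. Of 11 further lists, the up to 5 genes with the smallest adjusted p were named, with every tested chemokine, the members' receptors, and marker genes called or at 0. Genes outside this rule are TNF, CXCL10, CXCL11, PTPRC, NKX2-1, ADAM10, ADAM17, the neighbours of the chromosome 4 cluster, and those said in the text to be picked afterwards. So are IL1RN, IL36RN, IL18, TLR2, RELA, REL, NFKB1, NFKB2 and RELB. The members and lists were chosen with earlier results of these data known. Exon lengths and transcripts are of GENCODE 29 and promoters of RefSeq, GRCh38.p14. The fits were tested on simulated data. Alternatives were RLE and upper-quartile scaling, 2 other filters, each library left out, a replicate block, DESeq2 1.42.0, limma-voom (limma 3.58.1) and a fold-change minimum. Intervals of counts are exact at 95%.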

Additional observations from a re-analysis of the deposited data

How the results depend on the processing

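Scaling changed little: the median log2 fold change of all genes lay between -0.00 and 0.01 under TMM, RLE and upper-quartile factors. With an absolute log2 fold change over 1 required, 175 genes were higher and 129 lower, in place of 1910 and 1802, and 2 chemokine members were called. CXCL2 had 0.88 with DESeq2 (adjusted p = 0.0690), and between 0.68 and 1.01 with single libraries left out, where 4 of 6 fits called it. The cause was not tested. With single libraries left out, 3 or 4 members were called, 1 to 3 of the other chemokines (3 without si-GLMP replicate 3), 0 or 1 of the receptors and 5 to 8 of the adaptors and kinases. With 1 CPM required in 3 libraries, 0 other chemokines were called, since CCL5 was no longer tested, and with no filter 1 receptor was called, ACKR3. The si-GLMP minus NC difference in the log2 ratio of CXCL8 to CXCL1 counts, 0.04, changed sign with 3 of the 6 single libraries left out, and ran from -0.042 to 0.208. Same-numbered libraries correlated at 0.081, 0.051 and -0.012 in their deviations from the group means, so the numbers were not taken as pairs, and not every library correlated best with its own number. With the replicate number as a block, 2052 genes were higher and 1920 lower, and the same 4 members were called. Depth limits CXCL3, CXCL5, CXCL6, CCL2, CCL20 and CX3CL1, for which only large differences would be detectable.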

Other observations

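Several cytokine genes outside the naming rule, chosen after their values were seen, moved with the chemokines. IL6 rose from 0.557 ± 0.0277 to 2.04 ± 0.582 CPM (n = 3 each, SD), or by 1.86 ± 0.33 in log2 fold change (edgeR adjusted p = 1.32e-05), on 35 counts over the NC and 127 over the si-GLMP libraries. IL32 rose 2.46-fold (edgeR adjusted p = 0.00907), and neither gene overlapped between the groups. IL32 entered the test through the si-GLMP libraries, since 2 of the 3 NC libraries reached the cutoff. The colony-stimulating factor genes CSF1 and CSF2 rose by 0.42 and 0.58, while CSF3 had 5 counts over each group. TLR2, a receptor of bacterial lipoproteins, went the other way, from 70 counts over the NC to 30 over the si-GLMP libraries (log2 fold change -1.21 ± 0.40, edgeR adjusted p = 0.0223), although its CPM values overlapped between groups. TLR2 entered the test through the NC libraries, since 1 of the 3 si-GLMP libraries reached the cutoff. Its call was lost without NC replicate 1 and with DESeq2.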
